A study of Mus musculus with 282 samples.

Results

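Nnt encodes nicotinamide nucleotide transhydrogenase, an enzyme of the inner mitochondrial membrane that uses the proton gradient to make NADPH from NADP+ and NADH. The NADPH is used in mitochondria to keep glutathione and thioredoxin reduced, and so to remove hydrogen peroxide. The mouse strain C57BL/6J is known to carry a deletion of a run of internal Nnt exons, which most other strains do not carry. The gene was taken from the deposited assembly by its name, which gave 1 of 14079 gene rows and 2 of 51024 transcript rows.

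RNA of the whole hypothalamus was sequenced from 282 male mice on a high fat, high sugar diet. There was 1 library per mouse, and the strain of all but 1 mouse is known. Of the 99 strains, 25 are classical inbred lines, and the others belong to 4 recombinant inbred sets. The 18 AXB/BXA, 43 BXD and 6 BXH strains were bred from C57BL/6J with A/J, DBA/2J and C3H/HeJ, and the 7 CXB strains from the By sublines of C57BL/6 and BALB/c, which are not among the strains measured. All of these mice shared sex and diet, there was no control diet, and ages were not used here. There were 85 strains with 3 mice, 12 with 2 and 2 with 1, so the strain is the only group and a mouse is its replicate. The strains with 1 mouse, AXB-12/PgnJ and I/LnJ, borrow the spread of the others in the fits. The labels do not say whether the mice of a strain shared a litter or cage. The BXD strains were split into 18 early strains, whose names end in TyJ, and 25 later strains, which carry the suffix RwwJ in their titles. Levels are FPKM, fragments scaled to transcript length and to the size of the library, and tests used log2(FPKM + 1).

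Of 12 hypothalamus marker genes, 11 were measured, and all 11 were above 0 in every mouse. Agrp was measured as a locus merged with Atp6v0d1, and Oxt as a locus merged with Mrps26 and Ptpra. Those levels do not stand for the marker alone. Their summed level ranged from 882 to 9354 FPKM per mouse. Tissue beside the hypothalamus varied widely between libraries. Across mice, the summed level of 6 anterior pituitary markers ran from 0.589 to 16462 FPKM, that of 5 choroid plexus markers from 7.25 to 2101 FPKM, and that of 5 thalamus markers from 17.4 to 381 FPKM. In bulk tissue, fewer cells of a type and less RNA per cell cannot be told apart. The library of mouse OB-547, of the strain BXD-12/TyJ, stood apart, with a summed gene level of 792801 FPKM against a median of 337467 FPKM over mice.

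In mm10, the mouse build the files use, Nnt lies on the minus strand at chr13:119335448-119408997, a span of 73550 nucleotides that no other assembled locus overlaps. Both deposited transcripts were assembled with the structure of an annotated transcript and start at the same site. The longer transcript has 17 exons, 3464 nucleotides and 835 coding codons, and the shorter has 15 exons, 3122 nucleotides and 721 coding codons. They differ only in coding exons 8 and 9, at chr13:119374629-119374774 and chr13:119372396-119372591. These 2 exons hold 146 and 196 nucleotides, together 342 nucleotides or 114 codons, so skipping them keeps the reading frame. mm10 is the sequence of C57BL/6J, so exons that C57BL/6J lacks and other strains have do not enter these values, and the part of this in the differences below was not tested.

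The sequences that tell the transcripts apart are shown here, from the GENCODE transcripts, 5′ to 3′, because a read can assign the transcript only there. In the first, capitals mark exon 8 and lower case the end of exon 7. In the second, capitals mark exon 9 and lower case the start of exon 10. In the third, the shorter transcript's own junction, lower case is the end of exon 7 and capitals are the start of exon 10.
exon 8: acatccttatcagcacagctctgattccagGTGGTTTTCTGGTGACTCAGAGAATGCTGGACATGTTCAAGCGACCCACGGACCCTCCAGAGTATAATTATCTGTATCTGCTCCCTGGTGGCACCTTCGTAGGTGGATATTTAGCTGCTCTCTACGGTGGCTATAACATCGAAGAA
exon 9: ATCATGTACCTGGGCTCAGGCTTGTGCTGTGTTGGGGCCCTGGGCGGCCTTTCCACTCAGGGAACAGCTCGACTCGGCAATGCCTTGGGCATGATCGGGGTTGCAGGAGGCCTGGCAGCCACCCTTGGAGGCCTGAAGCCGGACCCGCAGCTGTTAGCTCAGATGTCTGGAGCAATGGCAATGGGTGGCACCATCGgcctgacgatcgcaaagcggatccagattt
joined: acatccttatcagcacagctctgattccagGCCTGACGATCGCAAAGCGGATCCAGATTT

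**Figure D1:**
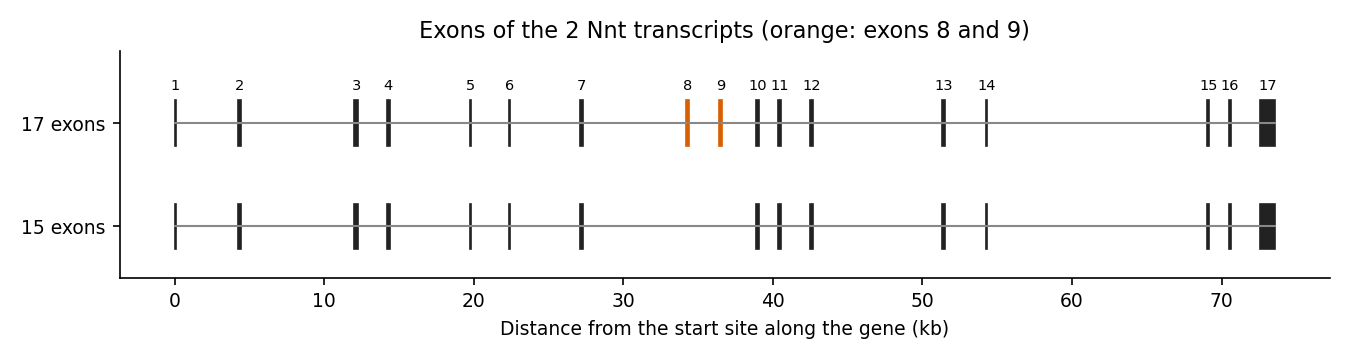
Exons of the 2 deposited Nnt transcripts along the gene, in kilobases from the start site, with exon numbers above the 17-exon transcript. Exons 8 and 9, in orange, are missing from the 15-exon transcript, and the other 15 exons are shared.

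Nnt was a gene of middling level. Over the mice it ranged from 4.38 to 13.6 FPKM with a median of 9.81 FPKM, and its mean stood at percentile 50.2 of the genes measured. Strain means ran from 4.98 ± 0.547 FPKM (SD, n = 3) in BXD74 to 12.5 ± 0.971 FPKM (SD, n = 3) in BXH-6/TyJ, a 2.51-fold range. Mice of a strain lay close together by comparison, with a pooled SD of 0.696 FPKM within strains. Strain accounted for a share of 0.91 of the variance of log2(FPKM + 1), computed as an intraclass correlation. In limma's moderated F test Nnt differed between strains with an adjusted p of 2.05e-72, where 75.4% of genes passed the same test, and it ranked 147 of 14079.

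C57BL/6J, a parent of the AXB/BXA, BXD and BXH sets, was the lowest classical inbred strain. Its 3 mice measured 5.95, 6.00 and 6.05 FPKM, a mean of 6.00 ± 0.0524 FPKM (SD, n = 3). The 24 other inbred strains had means from 8.13 FPKM in SJL/J to 12.2 FPKM in SM/J, with a median of 10.5 FPKM. Every mouse of those strains, the lowest at 7.83 FPKM, lay above every C57BL/6J mouse. The mean of the other inbred strains was 1.72 times that of C57BL/6J in FPKM. On the log2(FPKM + 1) scale C57BL/6J was at 2.81 and the mean of the others at 3.49, a difference of -0.68 ± 0.06 (SE, limma, adjusted p = 2.85e-21). The test placed 3.04% of genes lower in C57BL/6J, and Nnt ranked 40 of all genes by p. The error of this contrast is that of mice within strains and does not cover the spread between strains.

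Among the inbred strains related to C57BL/6J, C57BLKS/J had 9.68 ± 0.725 FPKM (SD, n = 3) and C57L/J 10.5 ± 0.638 FPKM (SD, n = 3). Both were higher than C57BL/6J, by 0.61 (95% interval 0.45 to 0.77) and 0.72 (0.56 to 0.88) in log2(FPKM + 1). Markers of tissue beside the hypothalamus were read in the same mice. The summed choroid plexus markers were 26.1, 38.2 and 1422 FPKM in its 3 mice, whose Nnt levels all lay from 5.95 to 6.05 FPKM. The strain mean of that sum was 495 FPKM against a range of 10.6 to 914 FPKM in the other inbred strains, of which 4 were as high. The summed pituitary markers were low in all 3 C57BL/6J mice, at 3.20, 3.64 and 5.59 FPKM, a mean of 4.14 FPKM against 3.11 to 7071 FPKM in the other inbred strains, of which 23 of 24 were as high. The part of either tissue in the difference was not tested.

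**Figure D2:**
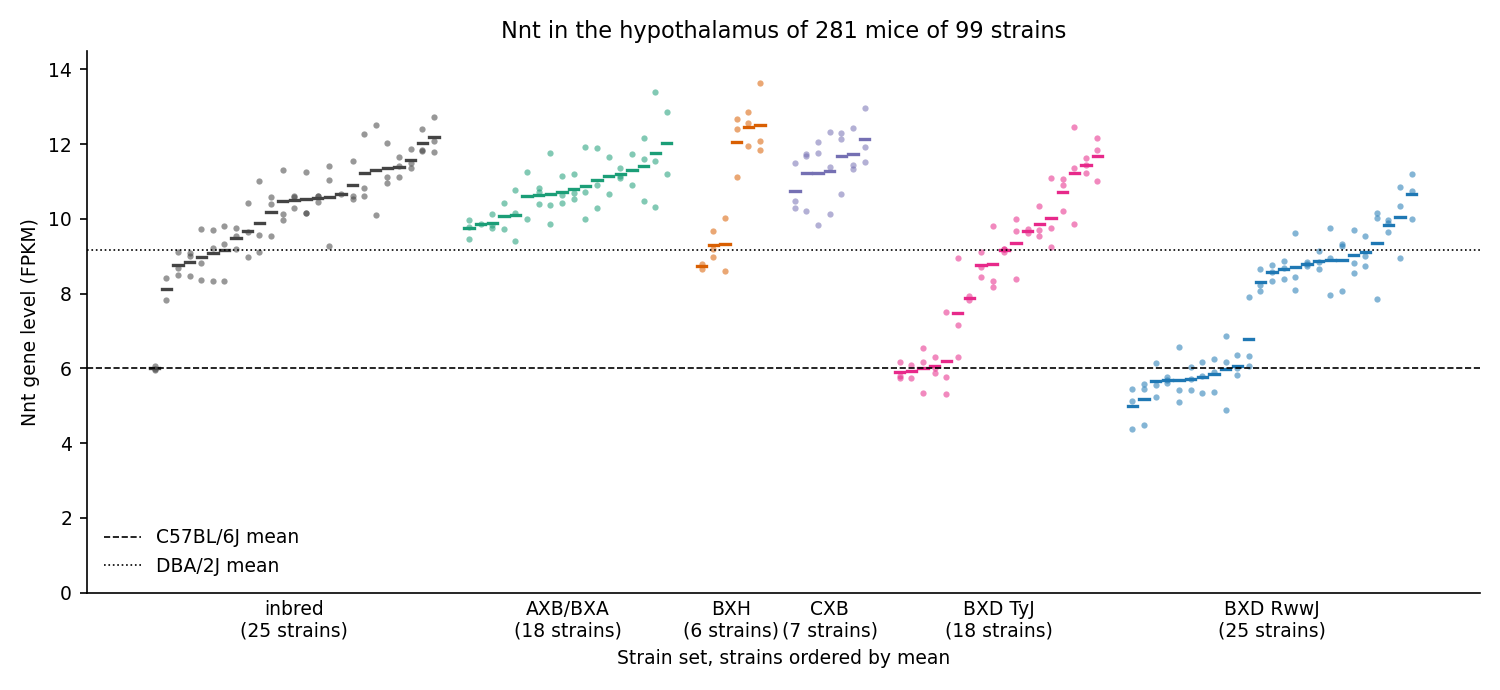
Nnt gene level in FPKM for each mouse of known strain (points) with the strain mean (bars), by strain set and ordered by mean, with lines at the means of C57BL/6J (dashed) and DBA/2J (dotted). Only BXD strains reach the level of C57BL/6J, and the 31 AXB/BXA, BXH and CXB strains all lie above it.

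The recombinant sets differed in how their strains stood to C57BL/6J. Across the panel, 82 of 98 strains (83.7%) had more Nnt than C57BL/6J at an adjusted p under 0.05 and 0 had less, where 2.01% of all pairs of a gene and a strain were lower in C57BL/6J. The p values were adjusted over all genes and the 98 contrasts, which share the 3 C57BL/6J mice. The differences called ran from 0.26 to 0.95 in log2(FPKM + 1). The 16 strains not called were all BXD strains, 37.2% of that set, and their 95% intervals lay between -0.39 and 0.31. Those 16 strains did not separate from C57BL/6J at this precision, which does not show that their levels are equal.

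In the AXB/BXA set, from A/J and C57BL/6J, 18 of 18 strains were called higher than C57BL/6J. Their means ran from 9.75 FPKM in AXB-18/PgnJ to 12.03 FPKM in AXB-8/PgnJ, with a median of 10.8 FPKM, around the 10.6 ± 1.14 FPKM (SD, n = 3) of A/J. In the CXB set 7 of 7 were called higher, with means from 10.8 to 12.1 FPKM and BALB/cJ, a relative of their BALB/c parent, at 11.6 ± 0.271 FPKM (SD, n = 3). In the BXH set 6 of 6 were called higher. In these 3 sets 0 of the mice had a level at or below the highest C57BL/6J mouse.

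The BXH strains lay in separate ranges. BXH-19/TyJ, BXHB2 and BXHA1 had means of 8.73, 9.29 and 9.32 FPKM, close to the 8.97 ± 0.693 FPKM (SD, n = 3) of the parent C3H/HeJ. BXH-4/TyJ, BXH-9/TyJ and BXH-6/TyJ had 12.1, 12.5 and 12.5 FPKM, above both parents. The highest mouse of the first 3 strains had 10.03 FPKM and the lowest of the other 3 had 11.1 FPKM, so their mice did not overlap. This split was seen in the values and was not tested.

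**Figure D3:**
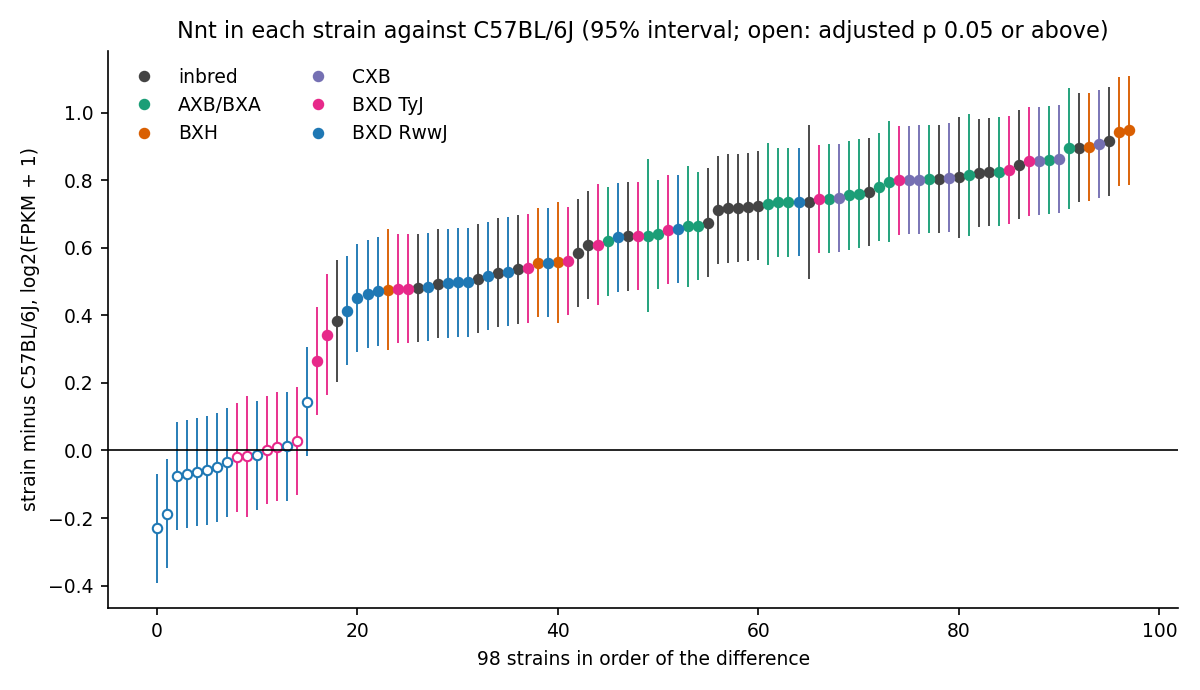
Difference of each of 98 strains from C57BL/6J in log2(FPKM + 1), in order of size, with 95% intervals from the limma fit, coloured by strain set. The 16 open points are BXD strains with an adjusted p of 0.05 or above, and the 82 filled points lie from 0.26 to 0.95.

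The BXD set covered nearly the whole range of the panel, from 4.98 to 11.7 FPKM, and its parents C57BL/6J and DBA/2J stood at 6.00 and 9.17 FPKM. The DBA/2J mice had 8.35, 9.33 and 9.82 FPKM. In 17 of 43 BXD strains every mouse was below the lowest DBA/2J mouse, and in 9 the mean was above the highest. The lower strains included BXD74 at 4.98 FPKM, BXD86 at 5.17 FPKM, BXD48 at 5.65 FPKM and BXD-40/TyJ at 5.90 FPKM. BXD74 was lower than C57BL/6J by 0.23 in log2(FPKM + 1), with an unadjusted 95% interval of -0.39 to -0.07 and an adjusted p of 0.0954 in limma. At the upper end were BXD-21/TyJ with 11.4 ± 0.203 FPKM and BXD-19/TyJ with 11.7 ± 0.593 FPKM (SD, n = 3 each).

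In the order of the 99 strain means, neighbours differed little, with a median step of 0.0324 FPKM. Only 1 of 98 steps was larger than the pooled SD within strains. It lay between BXD56 at 6.78 ± 0.993 FPKM (SD, n = 3) and BXD-12/TyJ at 7.48 ± 1.34 FPKM (SD, n = 3), ranks 17 and 18, and measured 0.70 FPKM. The mice of these strains overlapped, at 6.08 to 7.91 and 6.32 to 8.94 FPKM. The step up to BXD56, from BXD-20/TyJ at 6.20 FPKM, measured 0.58 FPKM, and the step above BXD-12/TyJ measured 0.40 FPKM. The pooled SD is that of single mice, and a mean of 3 mice has a smaller error. BXD-12/TyJ was called higher than C57BL/6J with an adjusted p of 0.0363, and without mouse OB-547 that p was 0.00294 in limma. The call was lost without replicate 1 (adjusted p = 0.143) and without replicate 3, where the difference was 0.15 in log2(FPKM + 1) (adjusted p = 0.650).

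Early and later BXD strains were compared as split by suffix, and the labels do not say when each strain was bred. Most early mice had mouse numbers below those of every later mouse, and the labels do not say what the numbers stand for. Median summed choroid plexus markers were 160 FPKM in the early and 55.6 FPKM in the later strains. The medians were 69.3 and 52.2 FPKM for pituitary markers, and 208 and 213 FPKM for thalamus markers. The part of tissue or of mouse number in the differences below was not tested. The 18 early strains had means from 5.90 to 11.7 FPKM with a median of 8.98 FPKM. The 25 later strains ran from 4.98 to 10.7 FPKM with a median of 8.57 FPKM. The ranges overlapped over most of their length. Early strains were higher by 0.16 ± 0.09 in log2(FPKM + 1) (SE, 3.24 against 3.08), with an adjusted p of 0.644 in limma, where 0% of genes were called. At an unadjusted p under 0.05, 1135 of 14079 genes passed limma's test, and Nnt was not among them (unadjusted p = 0.0906). For Nnt alone a 2-sided permutation test of strain labels gave p = 0.0999, and on ranks p = 0.0439, so the call depended on the statistic.

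The early strains were not uniform. The 13 numbered up to 32 had a median of 9.67 FPKM, from 6.20 FPKM in BXD-20/TyJ to 11.7 FPKM. The 5 with higher numbers had a median of 6.02 FPKM, and 4 of these (BXD-34/TyJ, BXD-38/TyJ, BXD-39/TyJ and BXD-40/TyJ, with 5.92, 6.02, 6.06 and 5.90 FPKM) were not separated from C57BL/6J. The exception was BXD-36/TyJ, at 8.78 ± 0.892 FPKM (SD, n = 3). Set against the later strains, the 13 were higher by 0.29 in log2(FPKM + 1). For Nnt alone the permutation p was 0.00569, and the adjusted p in limma was 0.441. This cut leaves out the 5 early strains with higher numbers, of which 4 were not separated from C57BL/6J. With all 18 early strains the permutation p was 0.0999, so the smaller p rests on leaving those strains out. Strains not called against C57BL/6J were 1 of the 13 numbered up to 32, 5 of all 18 early strains (27.8%) and 11 of 25 later strains (44%).

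No difference in the spread among strains was detected between the early and later sets. The mean absolute deviation from the set's median was 0.259 in the early and 0.270 in the later strains in log2(FPKM + 1), a difference of -0.0110 (2-sided permutation test, p = 0.864). The 5 strain sets as a whole differed in Nnt (limma's moderated F = 15.7, adjusted p = 1.34e-07), where 26.2% of genes passed. The median strain means were 8.72 FPKM in BXD, 10.5 FPKM in the inbred strains, 10.7 FPKM in BXH, 10.8 FPKM in AXB/BXA and 11.3 FPKM in CXB.

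**Figure D4:**
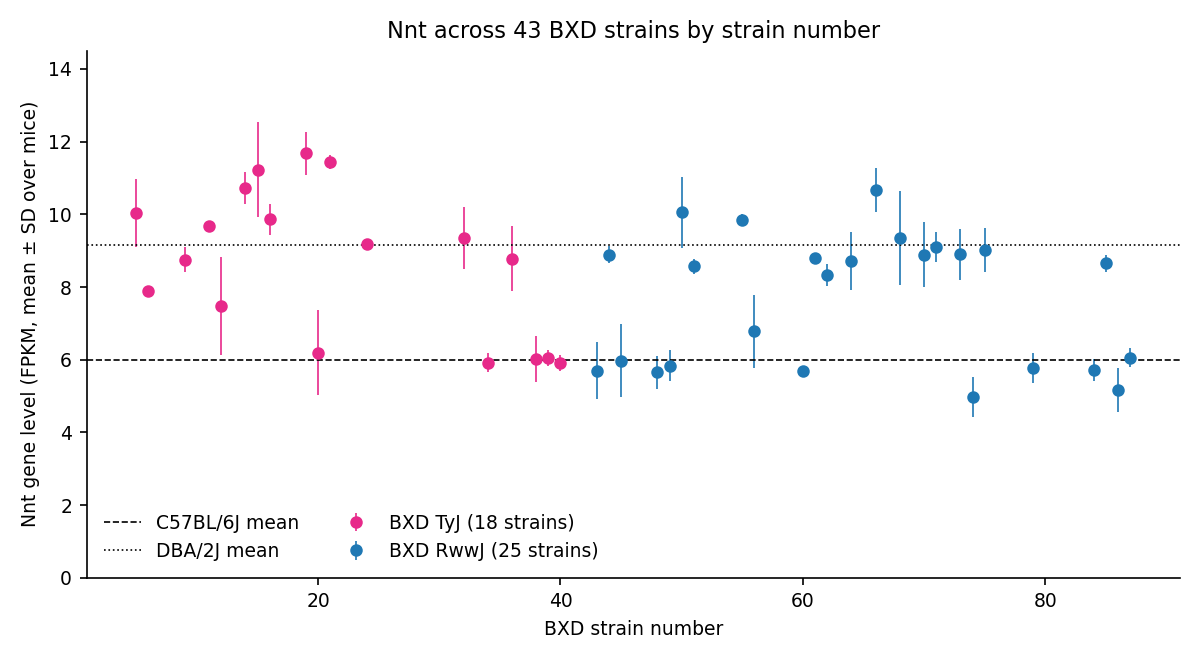
Strain mean of Nnt in FPKM, with the SD over mice as error bars, against the number of the BXD strain, for 18 TyJ and 25 RwwJ strains, with lines at the means of C57BL/6J (dashed) and DBA/2J (dotted). Of the strains numbered up to 32 only BXD-20/TyJ lies at the level of C57BL/6J, and 15 of the 30 strains numbered from 34 on were not separated from it.

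The transcripts varied far more between mice of a strain than the gene did. The 17-exon transcript had a mean of 5.53 FPKM and the 15-exon transcript 2.96 FPKM over the mice, and the longer was the higher in 228 of 282 mice and in 92 of 99 strains by mean. The pooled SD within strains was 1.67 FPKM for the longer and 1.52 FPKM for the shorter, against 0.696 FPKM for the gene. The strain share of variance was 0.25 for the longer and 0.28 for the shorter. Both passed limma's moderated F test, with adjusted p values of 1.57e-04 and 3.56e-05, where 46.8% of transcripts passed. The 2 transcripts together did not account for a median of 7.80% and at most 45.5% of the gene's FPKM. The paper describes gene FPKM as summed over transcripts, and it filtered transcripts by expression. Whether Nnt transcripts removed by that filter hold the rest was not tested.

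The split between the transcripts did not settle within strains. The 3 mice of 129X1/SvJ had 6.58, 0.0314 and 1.22 FPKM of the 17-exon transcript and 0.750, 4.66 and 4.47 FPKM of the 15-exon transcript, while their gene levels were 9.02, 8.46 and 9.09 FPKM. The 15-exon share of both transcripts was 10.2%, 99.3% and 78.6% in these mice. Over all strains, the strain share of variance of that percentage was 0.056. Mice of a strain varied more in this split than in the gene's level.

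In C57BL/6J the 15-exon transcript measured 0.00736, 0 and 2.15 FPKM and the 17-exon transcript 5.53, 5.01 and 3.41 FPKM. The shorter transcript was lower in C57BL/6J than in the other inbred strains by 1.50 ± 0.39 in log2(FPKM + 1) (SE, limma, adjusted p = 0.0130), where 0.943% of transcripts were lower. The call was lost without replicate 1 (adjusted p = 0.398) or replicate 2 (0.590). A low level of this transcript was not particular to C57BL/6J. The inbred strain SJL/J had a mean of 0.267 FPKM (n = 2), against 0.718 FPKM in C57BL/6J. Of 98 strains, 14 were called higher than C57BL/6J for this transcript and 0 lower. The longer transcript differed by -0.23 ± 0.26 (SE, adjusted p = 0.827). In DBA/2J the levels were 5.92, 5.42 and 4.13 FPKM for the longer and 3.39, 2.28 and 4.06 FPKM for the shorter transcript. Between early and later BXD strains neither transcript was called, with differences of 0.12 (adjusted p = 0.826) and 0.28 (0.823) in log2(FPKM + 1), where 0% of transcripts were called by limma and 3128 of 51024 passed an unadjusted p under 0.05.

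**Figure D5:**
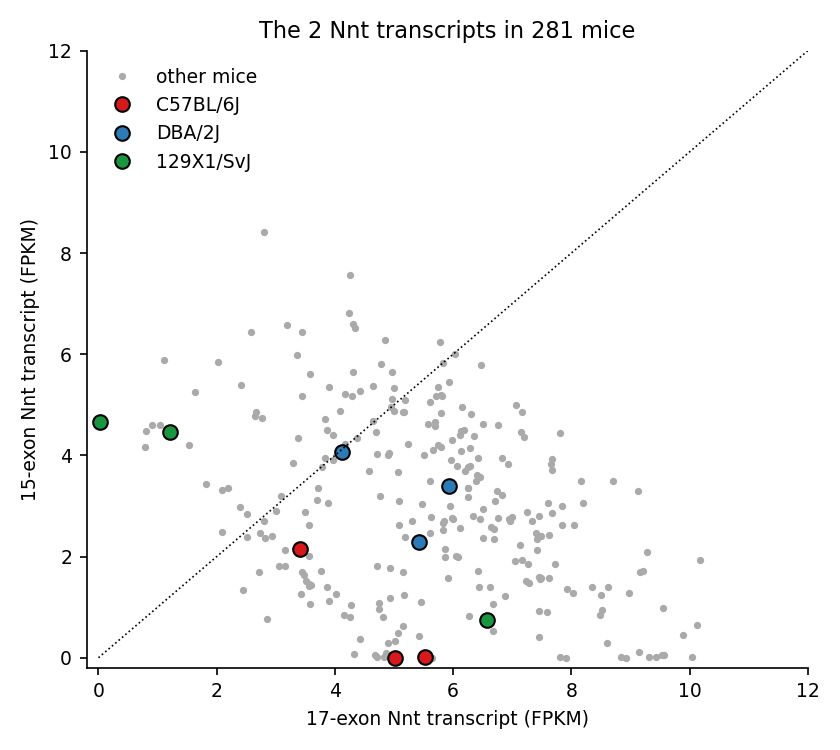
Level of the 15-exon against the 17-exon Nnt transcript in FPKM, 1 point per mouse of known strain, with the mice of C57BL/6J, DBA/2J and 129X1/SvJ coloured and the line of equality dotted. The 3 mice of 129X1/SvJ are spread from 0.0314 to 6.58 FPKM of the 17-exon transcript.

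Genes listed with the supply of NADPH were described by their counts. The list was not limited to enzymes that make NADPH themselves, and also holds genes of linked steps such as Mthfd1l and Nadk. Of 17 measured genes of mitochondrial and cytosolic NADPH sources, 16 (94.1%) differed between strains, beside 75.4% of all genes, and 0 between early and later BXD strains. In C57BL/6J against the other inbred strains 1 was lower and 0 higher, where 3.04% of all genes were lower and 3.63% higher. It was Mthfd1l, the mitochondrial formyltetrahydrofolate synthetase, at -0.23 in log2(FPKM + 1) (limma, adjusted p = 0.0176). The mitochondrial isocitrate dehydrogenase Idh2 differed by 0.09 (adjusted p = 0.644) and the malic enzyme Me3 by under 0.001 (0.999). The median difference of the list was 0.02, beside 0.00 over all genes.

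Of 29 glutathione and thioredoxin genes, 20 (69.0%, beside 75.4% of all genes) differed between strains and 0 between early and later BXD strains. In C57BL/6J 3 were lower and 0 higher, beside 3.04% and 3.63% of all genes. The 3 were Gsr, the reductase that uses NADPH to reduce glutathione, at -0.54 (limma, adjusted p = 3.07e-04), the cytosolic thioredoxin reductase Txnrd1 at -0.20 (3.50e-04) and the glutaredoxin Glrx at -0.36 (0.0171), in log2(FPKM + 1). Prdx3, a mitochondrial peroxiredoxin, and Txn2, the mitochondrial thioredoxin, differed by -0.03 (0.907) and -0.02 (0.967). The median of the list was -0.03. Its members Gclm, Prdx5 and Nqo1 were measured as loci merged with another gene, as was Naprt1 in the list that follows. Of 12 genes of NAD synthesis and transport 9 were measured. Of these, 6 (66.7%, beside 75.4% of all genes) differed between strains, and 0 differed in either direction between C57BL/6J and the other inbred strains or between early and later BXD strains, with a median of 0.05 in the former contrast.

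Of 9 genes starting within 1 Mb of Nnt, 7 differed between strains (77.8%, beside 75.4% of all genes). In C57BL/6J 2 were higher and 0 lower than in the other inbred strains, beside 3.63% and 3.04% of all genes. The 2 were 4833420G17Rik, 53762 nucleotides from the Nnt span, at 0.52 ± 0.09 in log2(FPKM + 1) (SE, limma, adjusted p = 4.46e-07), and the locus named Gm21967 and Gm7120 at 0.62 ± 0.13 (SE, adjusted p = 2.00e-04). Paip1, which binds poly(A)-binding protein and is 19604 nucleotides away, differed by 0.08 (adjusted p = 0.727), and Hmgcs1, an enzyme of cholesterol synthesis, by 0.02 (0.898). The library was not stranded. No other locus placed in the deposited assembly overlaps Nnt, but some measured loci, such as XLOC_009959, have no position there. Whether another locus shares reads with Nnt was not tested.

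Few genes resembled Nnt over the strains. By Pearson r of strain means over 99 strains, which share ancestry and library preparation, 7 genes reached an absolute r of 0.5, and the median absolute r over all genes was 0.0875. The 10 genes with the largest absolute r comprised 4 with names and 6 with assembly numbers alone, and r was negative in 9. The largest was XLOC_009959 at r = -0.58 (Spearman rho = -0.36), and over the 56 strains outside BXD its r was -0.02. The named genes included BC035947 (r = -0.55, rho = -0.58) and Gm9936 (-0.52, -0.51). Also named were Fcgr2b, an Fc receptor for IgG (-0.49, -0.46), and Ly86, a surface partner of a Toll-like receptor relative (-0.48, -0.47). All 4 had a weaker r within parts of the panel. In this order, r was -0.11, -0.22, -0.39 and -0.39 over the 43 BXD strains. Over the 56 other strains it was -0.26, -0.09, -0.23 and -0.18. Over the 43 BXD strains, the 5 genes with the largest absolute r included the neighbour 4833420G17Rik (r = -0.53, rho = -0.34), whose r over the 56 other strains was 0.36, and Farsa, a subunit of phenylalanyl-tRNA synthetase (r = 0.52, rho = 0.50).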

How the data were processed

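According to the methods and the submitters' processing notes, alignment was to mm10 (STAR 2.3.1) and assembly by Cufflinks 2.2.0. The authors deposited FPKM, scaled between libraries with Cuffnorm 2.2.1, and the merged assembly. The deposited FPKM carry no read counts, and precision is given by the SD over mice. Mapped and unique reads per mouse, which the study lists, entered only as covariates. Nnt rows were found by gene name, and exons were matched to GENCODE M21. Strain differences were tested on log2(FPKM + 1) with limma 3.58.1 in R 4.3.3, adjusted by Benjamini-Hochberg at 0.05, on mice for strains and on strain means for BXD and set comparisons. Permutations (100000) used Python 3.11.15 and numpy 2.4.6. Strain comparisons leave out mouse OB-627, because its title and strain label disagree. Some limma fits were checked on simulated data, at gene level only. They were the strain F test, early against later BXD strains and the contrast with the other inbred strains. The fits for strain sets, single strains, transcripts and read covariates were not checked in this way. Genes named are Nnt, members of the lists, genes within 1 Mb and those most like Nnt. The gene and the lists were chosen with earlier results of these data known. Alternatives were a pseudocount of 0.1, a minimum mean FPKM of 1, quantile scaling, read covariates, other tests, leaving out each replicate or mouse OB-547, and placing OB-627 in AXB-6/PgnJ.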

Additional observations from a re-analysis of the deposited data

How the results depend on the processing

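The Nnt differences between strains, between strain sets and from C57BL/6J to the other inbred strains kept direction and call under every alternative run. The difference of C57BL/6J from the other inbred strains lay between -0.70 and -0.67 in log2(FPKM + 1). With a pseudocount of 0.1 it was -0.76 in log2(FPKM + 0.1). The number of strains called higher was 82 of 98, or 78 (of 96) to 81 without a replicate. BXD-6/TyJ, BXD-12/TyJ and SJL/J lost their call when a replicate was left out. The early against later difference stayed at 0.16 to 0.29 in log2(FPKM + 1) with limma's adjusted p from 0.239 to 0.914. It passed the threshold as a difference of mean ranks of 7.84 (permutation p = 0.0439) and, for strains numbered up to 32, as a difference of 0.29 (permutation p = 0.00569). The difference in spread was -0.0288 to 0.0100 when leaving out replicates, turning sign without replicate 3, and -0.0927 (permutation p = 0.194) with early strains numbered up to 32. Of the 10 genes most like Nnt by Pearson r, 5 were among the 10 by Spearman rho. The strain F test was lost without replicate 1 for the 15-exon transcript, and without replicate 2 for both transcripts. No paired analysis was possible because replicate numbers were given in accession order and pair nothing. The values hold no counts, so counting error could not be set beside them.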

Other observations

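Mouse OB-627, left out of the strain comparisons, had 10.7 FPKM of Nnt, with 5.77 FPKM of the 17-exon and 3.90 FPKM of the 15-exon transcript. The 15-exon transcript was listed at 0 in 3 mice.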
